A study of Mus musculus with 20 samples.

Results

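The Krüppel-like factors (KLFs) are zinc finger transcription factors that carry 3 C2H2 fingers at the C terminus, bind CACCC boxes and GC-rich DNA through them, and differ in the N-terminal stretches with which they recruit coactivators or corepressors. The 10 KLF genes described here are Klf2, Klf3, Klf4, Klf6, Klf9, Klf10, Klf11, Klf12, Klf13 and Klf15, taken by gene symbol out of the 37681 genes listed in each table, with 1 row for each symbol. All 10 passed the filter on low counts in each of the 6 tables. A further 7 KLF genes in the tables (Klf1, Klf5, Klf7, Klf8, Klf14, Klf16 and Klf17) are given for context only.

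The samples were livers of 10 wild-type male C57/B6J mice aged 12 weeks. Of these, 5 (mice ILB_9577, ILB_9578, ILB_9579, ILB_9582 and ILB_9583) received an intraperitoneal injection of IL-1β at 20 µg/kg, and 5 (mice UNT_9574, UNT_9575, UNT_9576, UNT_9580 and UNT_9584) received saline and are called untreated. Liver was taken 4 hours later, and the RNA of each mouse was sequenced on an Illumina HiSeq and on an Ion Torrent Proton, giving 20 libraries. The reads of each platform were aligned with STAR, GSNAP or STAR followed by Bowtie2, so that there are 6 tables of 10 libraries, and the Illumina STAR table is the main one here. Levels are given as counts-per-million (CPM), scaled to the effective library size of edgeR, and a gene with an adjusted p below 0.05 in edgeR's quasi-likelihood test over 15578 genes is called a DEG. The tables of both platforms come from the same mice and are not independent repeats.

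IL-1β is a cytokine that starts the acute phase response of the liver. KLF genes are known from several of its cell types: KLF15 and KLF9 are hormone-responsive factors of hepatocytes, KLF2 and KLF4 hold endothelial cells and macrophages in a quiescent state, and KLF6 is an early gene of liver injury. Whole liver RNA mixes these cells, so more RNA per cell and more cells of one type cannot be told apart in any result below.

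With IL-1β, Klf2, Klf3, Klf6 and Klf15 were higher in the Illumina STAR table and Klf12 was lower. The other 5 members (Klf4, Klf9, Klf10, Klf11 and Klf13) were not called. Fold changes of the called members were modest, from 1.31-fold for Klf15 to 1.80-fold for Klf2 among the higher ones, and 2.74-fold lower for Klf12. Over all genes tested, 22.7% were called higher and 22.9% lower in this table, so that the 4 and 1 of 10 members lie above and below the background, and the 5 called of 10 are close to the sum of both. The median log2 fold change of the 10 members was 0.14, beside 0.00 for all genes, and the median absolute log2 fold change was 0.46 beside 0.47. The IL-1β and untreated ranges overlapped for every one of the 10 members, whereas 33.9% of all genes tested had ranges that did not overlap.

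**Figure D1:**
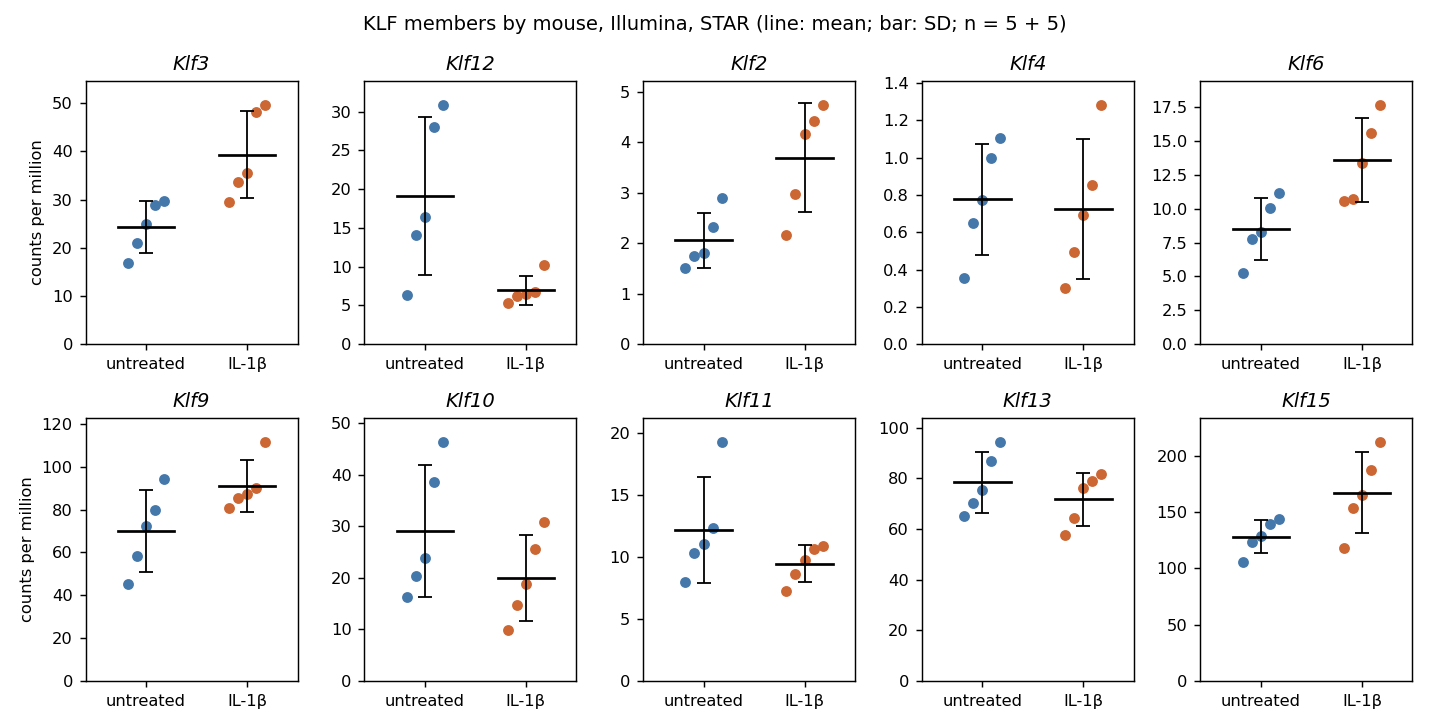
CPM of the 10 KLF members in each mouse (Illumina, STAR), untreated mice in blue and IL-1β treated mice in orange, with the mean as a line and the SD as a bar (n = 5 each). Klf12 runs from 6.30 to 30.8 CPM in untreated mice and from 5.31 to 10.2 CPM in treated mice, and both groups share part of their range in every panel.

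The DNA-binding part is where the members resemble each other most, and 2 pairs stand closest. Over the stretch of 81 residues that holds the 3 fingers, the 45 pairs of members shared 60.5% to 91.4% of their residues, with a median of 66.7%, while before the fingers identity was 19.5% to 41.2%. Klf2 and Klf4 shared 74 of the 81 finger residues, and so did Klf3 and Klf12. The coding DNA of these 4 finger stretches is shown because Klf3 and Klf12 were called in opposite directions after IL-1β, and Klf2 was called while Klf4 was not. The sequences are from GENCODE coding transcripts on NCBIM37 (mm9), 5′ to 3′, 243 bases each, with the codons of the zinc-binding cysteines and histidines in capitals.
Klf3, coding bases 781 to 1023: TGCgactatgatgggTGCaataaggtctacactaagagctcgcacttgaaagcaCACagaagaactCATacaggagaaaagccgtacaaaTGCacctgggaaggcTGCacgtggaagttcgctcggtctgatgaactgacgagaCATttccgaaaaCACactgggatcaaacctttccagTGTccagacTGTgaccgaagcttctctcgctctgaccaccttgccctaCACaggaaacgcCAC
Klf12, coding bases 955 to 1197: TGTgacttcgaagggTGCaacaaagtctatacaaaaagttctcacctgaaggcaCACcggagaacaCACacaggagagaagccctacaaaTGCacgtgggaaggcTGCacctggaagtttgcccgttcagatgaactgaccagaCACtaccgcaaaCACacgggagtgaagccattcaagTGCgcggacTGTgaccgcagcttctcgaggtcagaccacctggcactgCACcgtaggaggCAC
Klf2, coding bases 817 to 1059: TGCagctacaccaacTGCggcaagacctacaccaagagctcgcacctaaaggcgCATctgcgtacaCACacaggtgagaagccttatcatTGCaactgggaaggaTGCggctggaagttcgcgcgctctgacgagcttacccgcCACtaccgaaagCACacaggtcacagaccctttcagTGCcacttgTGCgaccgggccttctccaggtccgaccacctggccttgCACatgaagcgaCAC
Klf4, coding bases 1204 to 1446: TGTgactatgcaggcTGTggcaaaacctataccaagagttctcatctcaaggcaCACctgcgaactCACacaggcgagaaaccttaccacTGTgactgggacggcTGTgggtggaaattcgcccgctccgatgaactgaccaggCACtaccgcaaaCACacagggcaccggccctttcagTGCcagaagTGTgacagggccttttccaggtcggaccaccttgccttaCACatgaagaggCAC
Although the residues are nearly the same, the DNA is not: Klf3 and Klf12 differed at 53 of the 243 bases, as did Klf2 and Klf4, and the longest run without a difference was 14 bases in both pairs. A search for runs of at least 25 identical bases between the members' coding transcripts and those of other genes found none for Klf2, Klf12 and Klf15. Such runs were of 26 to 33 bases for Klf3, Klf4, Klf6, Klf9, Klf10 and Klf11. For Klf13 the longest was 74 bases, shared with Tmem220. Only coding transcripts were searched, so pseudogenes were not covered, and whether such runs affected the counts was not tested.

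Klf3 and Klf12 are the members known to repress transcription by binding the corepressor CtBP. They moved in opposite directions. Klf12 (ENSMUSG00000072294, minus strand, chr14:100269869-100549015 on mm9) was first described as a repressor of the gene for AP-2α. Untreated mice UNT_9574, UNT_9575, UNT_9576, UNT_9580 and UNT_9584 had Klf12 levels of 14.1, 6.30, 28.0, 30.8 and 16.4 CPM on Illumina with STAR. In treated mice ILB_9577, ILB_9578, ILB_9579, ILB_9582 and ILB_9583 they were 5.31, 6.70, 6.16, 10.2 and 6.44 CPM. Untreated levels thus spread over 4.90-fold and treated levels over 1.92-fold, and 4 of the 5 untreated mice lay above every treated mouse. Mouse UNT_9575 was the exception, at the level of the treated group. The log2 fold change of Klf12 was -1.46 (SE 0.33, adjusted p = 0.00228).

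Klf12 was the one member called lower in all 6 tables, with log2 fold changes between -1.63 and -1.46. In the Ion Torrent STAR table the untreated levels of Klf12 were 10.5, 3.19, 17.5, 20.2 and 7.45 CPM in the same order of mice, and the treated levels were 2.43, 3.88, 2.99, 4.77 and 4.90 CPM. Mouse UNT_9575 again lay among the treated mice and mouse UNT_9580 again had the most Klf12. When each mouse was left out in turn of the Illumina STAR table, Klf12 stayed a DEG in 10 of 10 fits, with log2 fold changes from -1.68 to -1.22. It was also the one member called by the two-sided rank-sum test (exact, q = 0.0420), run on the counts without edgeR's scaling. That test called 13.8% of all genes higher and 24.3% lower.

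Klf3 (ENSMUSG00000029178, plus strand, chr5:65194628-65221368 on mm9) is a repressor studied in red cell and fat cell development. Its Illumina STAR levels in untreated mice were 28.9, 29.8, 24.98, 16.8 and 21.0 CPM, in the order UNT_9574, UNT_9575, UNT_9576, UNT_9580 and UNT_9584. In treated mice they were 29.5, 35.6, 33.6, 48.2 and 49.6 CPM, in the order ILB_9577, ILB_9578, ILB_9579, ILB_9582 and ILB_9583. Apart from mouse ILB_9577, each treated mouse lay above the untreated maximum, and mice ILB_9582 and ILB_9583 were the highest of all. Klf3 rose by a log2 fold change of 0.69 (SE 0.18, adjusted p = 0.00449). It was called higher in all 6 tables, and its log2 fold change was between 0.45 and 0.69. In the Ion Torrent STAR table the untreated levels of Klf3 were 24.2, 26.8, 21.6, 17.1 and 19.9 CPM and the treated levels 22.9, 26.4, 25.4, 36.9 and 38.5 CPM, so that 2 of 5 treated mice lay above the untreated maximum. Its call there was lost (log2 fold change 0.42, adjusted p = 0.0686) without the Ion Torrent library of mouse UNT_9584, described below.

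The ratio of Klf3 to Klf12, each per kilobase of exon, was formed after their values had been seen and is given as a description. On Illumina it was 10.3 to 16.9 in treated mice, with a median of 11.9. In untreated mice it was 1.19 to 10.4, with a median of 2.80, and the untreated mouse with the highest ratio, UNT_9575, had 29.8 CPM of Klf3 and 6.30 CPM of Klf12. On Ion Torrent the ratio was 14.9 to 20.7 in treated and 1.86 to 18.4 in untreated mice. Among untreated mice, UNT_9580 had the least Klf3 and the most Klf12 on both platforms, and UNT_9575 the reverse.

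**Figure D2:**
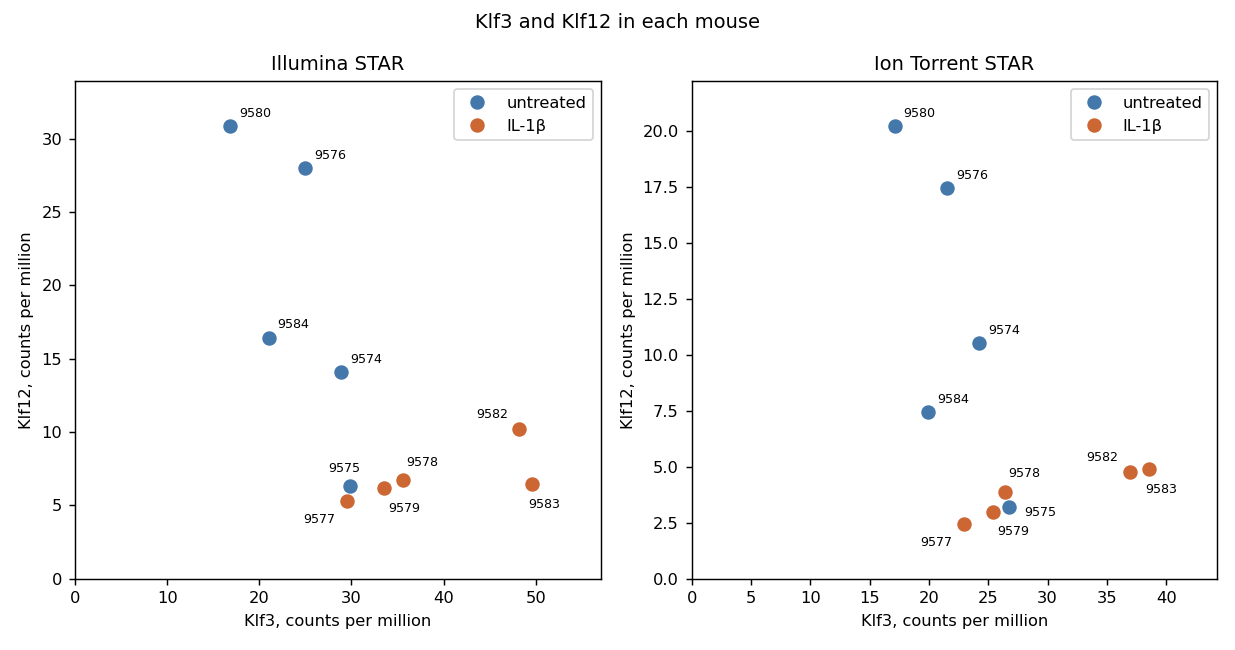
Klf3 (x axis) against Klf12 (y axis) in CPM for each mouse, labelled by mouse number, on Illumina (left) and Ion Torrent (right), both aligned with STAR. Treated mice (orange) have at most 10.2 CPM of Klf12 on Illumina and 4.90 CPM on Ion Torrent, and untreated mouse UNT_9575 (blue) lies among them on both platforms.

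Klf2, Klf4 and Klf6 act mainly as activators. Klf2 (ENSMUSG00000055148, plus strand, chr8:74842932-74845555 on mm9) is induced in endothelium by laminar blood flow and keeps endothelial cells, T cells and monocytes quiescent. Its Illumina STAR levels were low, at 1.75, 2.89, 1.80, 1.51 and 2.32 CPM in untreated mice and 4.74, 2.17, 2.98, 4.17 and 4.43 CPM in treated mice, in the orders given above. The mean count was 30.6 per library. Here 4 of 5 treated mice lay above the untreated maximum, and mouse ILB_9578 was the one that did not. Klf2 was 1.80-fold higher (log2 fold change 0.84, SE 0.25, adjusted p = 0.0117).

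Whether Klf2 was called depended on the platform. Log2 fold changes of Klf2 were 0.69 and 0.85 with the other Illumina aligners, with adjusted p = 0.0214 and 0.0108. In the 3 Ion Torrent tables they were 0.38 to 0.47, and none was called (adjusted p from 0.141 to 0.194). The Ion Torrent STAR levels of Klf2 were 4.57, 7.57, 5.39, 3.57 and 3.92 CPM in untreated and 5.43, 10.2, 4.61, 5.88 and 8.72 CPM in treated mice. Mouse ILB_9578, the lowest treated mouse on Illumina, was the highest on Ion Torrent. The difference between platforms was itself tested and was -0.37 on the log2 scale (Ion Torrent minus Illumina, 95% confidence interval -0.96 to 0.22, adjusted p = 0.807), an interval wide enough to hold both no difference and one as large as the Illumina effect.

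Klf6 (ENSMUSG00000000078, plus strand, chr13:5860735-5869639 on mm9) is an early gene in injured liver and in activated stellate cells. It had 11.2, 7.75, 5.24, 10.04 and 8.27 CPM in untreated and 10.7, 17.6, 15.6, 13.4 and 10.6 CPM in treated mice on Illumina with STAR. Treated mice ILB_9578, ILB_9579 and ILB_9582 lay above all untreated mice, and ILB_9577 and ILB_9583 fell within the untreated range. Klf6 rose by a log2 fold change of 0.68 (SE 0.20, adjusted p = 0.0117) and was called higher in all 6 tables, at 0.62 to 0.74. In the Ion Torrent STAR table its untreated levels were 5.00, 4.16, 2.89, 7.92 and 3.61 CPM and its treated levels 6.40, 10.6, 10.3, 6.74 and 4.36 CPM. Its adjusted p there, 0.0498, was just inside the threshold and was 0.108 without the Ion Torrent library of mouse UNT_9584, at a log2 fold change of 0.63.

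Klf4 (ENSMUSG00000003032, minus strand, chr4:55540013-55545347 on mm9), the closest relative of Klf2 and one of the factors used to reprogram cells to pluripotency, was near the limit of detection. Its counts were 3 to 13 per treated library and 4 to 13 per untreated library, with a mean of 8.20. The log2 fold change of Klf4 was -0.10 with a 95% confidence interval from -0.93 to 0.73, so that a change of Klf4 inside this interval, in either direction, could not be told from none. Its sign differed between tables, from -0.42 in Ion Torrent STAR to 0.18 in Illumina STAR + Bowtie2, and no table called it.

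Klf9, Klf10, Klf11 and Klf13 recruit the Sin3A corepressor, and none of the 4 was called in any of the 6 tables. Klf9 (ENSMUSG00000033863, plus strand, chr19:23215716-23241401 on mm9), which thyroid hormone and glucocorticoids induce, came closest. It had 45.3 to 94.5 CPM in untreated mice and 80.7 to 112 CPM in treated mice on Illumina with STAR, and all 5 treated mice were above the untreated mean. The log2 fold change of Klf9 was 0.38 (SE 0.16, adjusted p = 0.0721), and over the 6 tables it was 0.34 to 0.38 with adjusted p from 0.0520 to 0.101. Without untreated mouse UNT_9580, which had the most Klf9 of its group, it was 0.51 with adjusted p = 0.0147. This was the 1 call among the 10 fits that left out a mouse. Over those fits the log2 fold change of Klf9 was 0.26 to 0.51, with edgeR adjusted p up to 0.201.

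Klf10 and Klf11 are the TGF-β inducible members. Klf10 (ENSMUSG00000037465, minus strand, chr15:38221219-38230464 on mm9) varied strongly between mice of the same group. Its Illumina STAR levels were 16.2, 23.9, 20.4, 46.4 and 38.7 CPM in untreated and 18.8, 30.8, 9.93, 25.6 and 14.8 CPM in treated mice. Mice UNT_9580 and UNT_9584 lay above all others and mouse ILB_9579 was the lowest, on Ion Torrent as well (42.2, 32.6 and 10.5 CPM). The log2 fold change of Klf10 was -0.54 (SE 0.30, adjusted p = 0.166), and its 95% confidence interval was -1.19 to 0.11. All 6 tables gave a negative sign for Klf10, from -0.59 to -0.53. Klf11 (ENSMUSG00000020653, plus strand, chr12:25336236-25347639 on mm9) had 7.98 to 19.3 CPM in untreated and 7.30 to 10.9 CPM in treated mice, with mouse UNT_9584 the highest. Its log2 fold change was -0.37 (SE 0.21, adjusted p = 0.167), and it ranged from -0.44 to -0.13 over the tables.

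Klf13 (ENSMUSG00000052040, minus strand, chr7:71031237-71083801 on mm9), known as a regulator of the chemokine gene Ccl5 in T cells, had 65.3 to 94.5 CPM in untreated and 57.5 to 81.5 CPM in treated mice. The log2 fold change was -0.13 (SE 0.13), and the 95% confidence interval of Klf13 was -0.40 to 0.14.

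Klf15 (ENSMUSG00000030087, plus strand, chr6:90412570-90425232 on mm9) controls amino acid breakdown and gluconeogenesis in hepatocytes and is a glucocorticoid target. It had the most counts of the family, with a mean of 1588 per library. On Illumina with STAR its levels in untreated mice were 123, 144, 129, 139 and 106 CPM, and in treated mice 165, 118, 153, 188 and 213 CPM. Of the treated mice, ILB_9578 alone was below the untreated mean. Klf15 was 1.31-fold higher (log2 fold change 0.38, SE 0.14, adjusted p = 0.0345).

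The call on Klf15 was not a firm one. It was a DEG in 1 of 6 tables, although its log2 fold change was positive in all 6 (0.20 to 0.38). In the Illumina STAR table it was called in 4 of the 10 fits that left out a mouse. It was not called without mouse ILB_9577, ILB_9582, ILB_9583, UNT_9574, UNT_9576 or UNT_9584 (adjusted p up to 0.108). Mouse UNT_9584 was the lowest untreated mouse on Illumina (106 CPM) and the highest on Ion Torrent (225 CPM), where the other untreated mice had 163 to 202 CPM and the treated mice 151 to 286 CPM. The 2 libraries of this mouse also agreed least over all genes: their deviations from the untreated mean correlated at 0.25 across genes, beside 0.59 to 0.74 for the other 9 mice. For Klf15 the Ion Torrent effect minus the Illumina effect was -0.14 (SE 0.11) with all mice and -0.0022 (SE 0.068) without mouse UNT_9584.

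**Figure D3:**
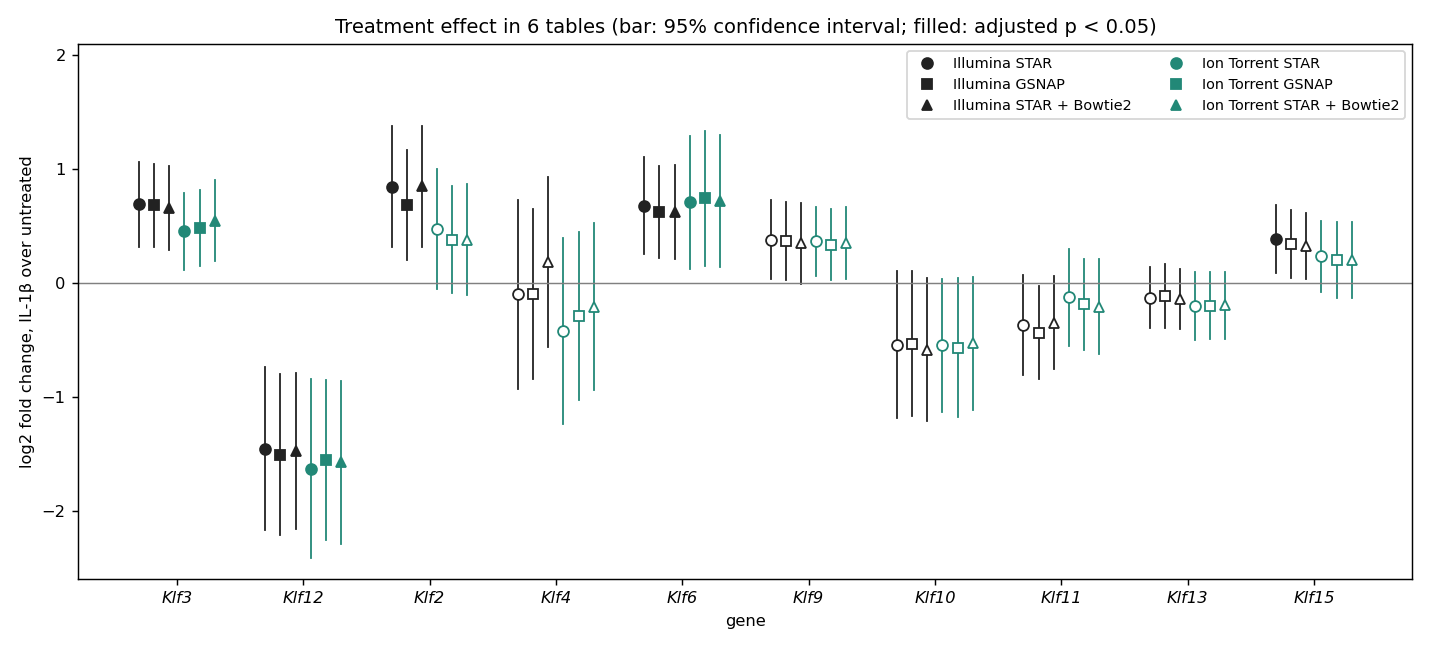
Log2 fold change of IL-1β over untreated (y axis) for the 10 members in 6 tables, Illumina in black and Ion Torrent in green, with 95% confidence intervals; filled symbols are called at adjusted p below 0.05. Klf3, Klf6 and Klf12 are filled in all 6 tables, Klf2 in the 3 Illumina tables and Klf15 in 1.

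The check over tables can be put in numbers. Klf3, Klf6 and Klf12 were called in all 6 tables and in the same direction, and they were the only members called in the Ion Torrent tables. Members called higher and lower numbered 3 and 1 with Illumina GSNAP, where 23.7% and 23.9% of all genes were called higher and lower, and 3 and 1 with Illumina STAR + Bowtie2 (22.9% and 24.4% of all genes). They numbered 2 and 1 in each Ion Torrent table, beside 20.3% and 21.8% of all genes with STAR, 22.5% and 23.9% with GSNAP, and 22.8% and 24% with STAR + Bowtie2. Without TMM scaling in the Illumina STAR table, which shifted the median log2 fold change of all genes to -0.10, edgeR called 2746 genes (17.6%) higher and 4335 (27.8%) lower in place of 3541 and 3575. Klf2, Klf3, Klf6 and Klf12 kept their calls under that scaling and Klf15 lost its call.

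Platform differences in the treatment effect were tested in 1 model over the 20 STAR libraries with the mouse as a block. edgeR called 0 of the 10 members at the adjusted threshold and 1 at an unadjusted p below 0.05, which was Klf3 (Ion Torrent minus Illumina -0.23, SE 0.10, edgeR adjusted p = 0.696). Over all 15578 genes the term was called for 1 gene (0.00642%), and 1090 genes had an unadjusted p below 0.05, so that 1 of 10 members at that level is near the background. limma-voom with the same block called 0 members and 0 genes in all, and Klf3 was again the 1 member below an unadjusted p of 0.05, beside 1272 of the 15578 genes.

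Compared per length of exon, Klf15 stood above the rest of the family in liver. In untreated mice its Illumina STAR level was 50.8 ± 5.85 CPM per kilobase (SD, n = 5), followed by Klf9 at 21.5 ± 5.84, Klf13 at 11.9 ± 1.82, Klf3 at 9.30 ± 2.09 and Klf10 at 7.62 ± 3.36. Klf12, Klf11 and Klf6 had 3.34 ± 1.78, 2.89 ± 1.01 and 2.01 ± 0.54, Klf2 had 1.11 ± 0.30, and Klf4 was the lowest member at 0.25 ± 0.097. Klf15 made up 44.4% of the summed level of the 17 KLF genes in the table. Its range over mice did not overlap that of Klf9, and neither did that of Klf4 overlap the ranges of its neighbours Klf1 and Klf5. Down to Klf5, every other pair of neighbours in the untreated order overlapped on Illumina with STAR, so that these ranges do not resolve their order. All genes were measured in the same mice, and the order within each mouse was not compared. On Ion Torrent with STAR the untreated ranges of Klf9 and Klf13 did not overlap, nor did those of Klf13 and Klf3.

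With IL-1β the same measure put Klf15 at 66.3 ± 14.1, Klf9 at 27.9 ± 3.69 and Klf3 at 15.0 ± 3.47, the last now ahead of Klf13 at 10.9 ± 1.56, though the ranges of Klf3 and Klf13 overlapped. Klf12 went from rank 6 to rank 10 of the order, at 1.22 ± 0.33. Ion Torrent with STAR gave the same first 5 genes in untreated mice, with Klf15 at 74.5 ± 9.96 and 54.0% of the summed level. Klf2 ranked higher there (2.71 ± 0.86) and Klf6 lower (1.12 ± 0.46). Klf12 went from rank 9 in untreated to rank 11 in treated mice on that platform. The tables were scaled separately and these levels were not tested against each other.

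**Figure D4:**
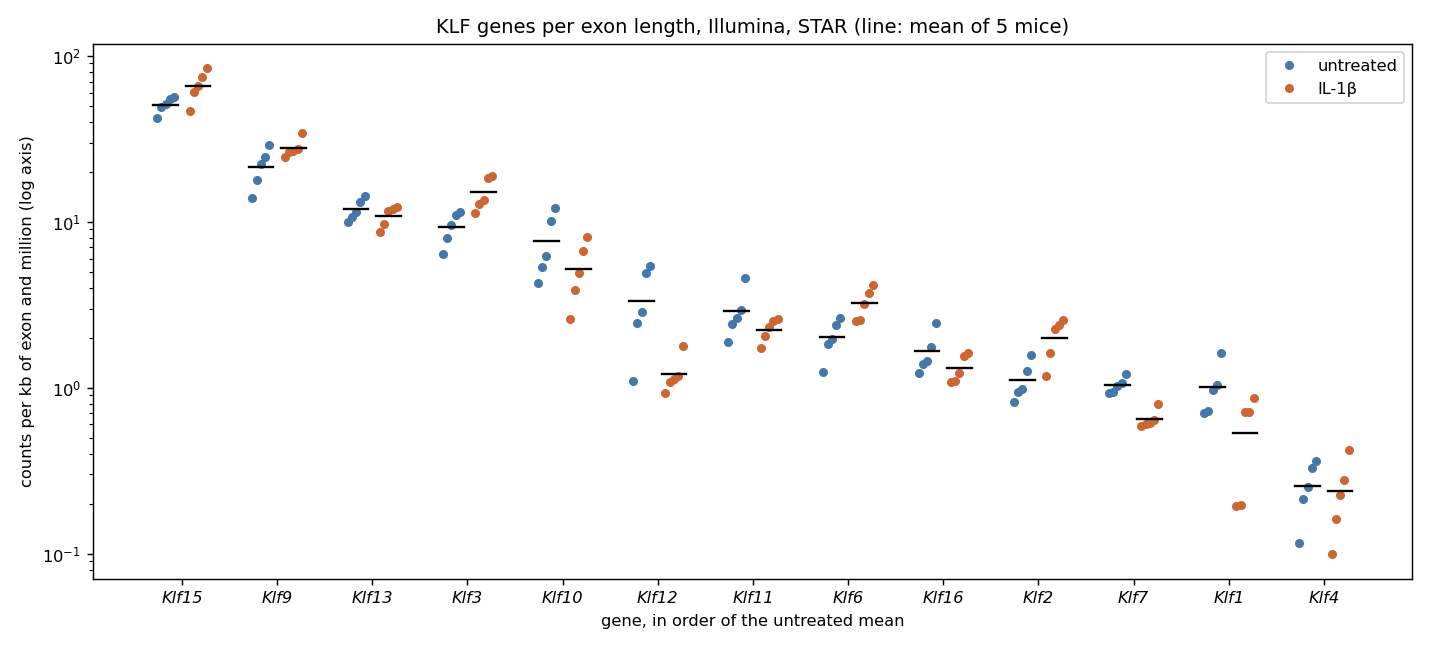
CPM per kilobase of exon (log axis) of the 13 KLF genes with at least 5 counts in 5 libraries (Illumina, STAR), untreated in blue and IL-1β in orange, 1 point for each of 5 mice and the mean as a line. Klf15 lies above all others in untreated mice, and Klf12 is the gene whose treated points drop furthest within the order.

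Of the 7 KLF genes outside the 10, Klf1, Klf7 and Klf16 could be tested. Klf5 and Klf8 had at most 4 counts in any library of the 6 tables, and Klf14 and Klf17 at most 1. Klf7, an activator close to Klf6, fell from 8.43 ± 0.92 to 5.28 ± 0.71 CPM (SD, n = 5; log2 fold change -0.67, SE 0.14, adjusted p = 0.00138), with no overlap between the groups. It was called in the 3 Illumina tables and in none of the Ion Torrent tables, where Klf7 had log2 fold changes of -0.46 to -0.27. Klf1, the erythroid KLF, had 1.55 ± 0.56 CPM in untreated and 0.82 ± 0.49 CPM in treated mice (log2 fold change -0.90, adjusted p = 0.0720), and was called lower in 4 of the other 5 tables. Klf16 had a log2 fold change of -0.33 (SE 0.21, adjusted p = 0.236).

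The proteins that work with KLFs, and genes they are known to control, were listed with earlier results of these data known, and the counts below describe the lists without a test of them. Among 11 cofactors, 4 were higher and 2 lower, with a median log2 fold change of 0.21, beside 22.7% and 22.9% of all genes. On Ion Torrent with STAR, 2 were higher and 2 lower. The difference lay in the corepressor genes Ctbp1 and Sin3a, named here after their values were seen, which were called higher on Illumina (log2 fold change 0.36 and 0.29) and not on Ion Torrent (0.036 and 0.12, edgeR adjusted p = 0.823 and 0.398). The acetyltransferase genes Ep300 and Crebbp rose by 0.52 and 0.58 on the log2 scale (SE 0.10 and 0.14), and Kat2b, another acetyltransferase, fell by 1.23 (SE 0.11, adjusted p = 6.03e-07). Hdac3 fell by 0.42 (SE 0.098). Of 5 Sp factors tested, which bind the same GC boxes, Sp1 and Sp2 rose by 0.71 and 1.13 (SE 0.11 and 0.16) and the other 3 were not called. One of these 3, Sp5, also named after its values were seen, had a log2 fold change of -1.19 (SE 0.53, edgeR adjusted p = 0.0789) from a mean count of 5.10 per library, and was called lower in the Ion Torrent STAR table (-1.46, adjusted p = 0.0105). Of the 4 ubiquitin ligases that act on KLF proteins, Wwp1 and Btrc fell by 0.64 and 0.53 (SE 0.12 each), and Fbxw7 was called higher at 0.43 but not without TMM scaling or in any Ion Torrent table. In the ERK5 route that drives KLF2 and KLF4, the kinase gene Map2k5 fell by 0.54 (SE 0.11), while Mapk7, which encodes ERK5, was called higher at 0.66 (SE 0.23) but not without TMM scaling or without mouse ILB_9577, ILB_9578 or ILB_9583.

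Genes that KLF2 and KLF4 are known to raise or lower in endothelium moved both ways. Of those raised by them, Nos3 (log2 fold change 1.23, SE 0.23), which encodes endothelial nitric oxide synthase, and Thbd (1.58, SE 0.19), which encodes thrombomodulin, were higher. Nos3 was not called in the Ion Torrent STAR + Bowtie2 table. S1pr1, which encodes a receptor for sphingosine 1-phosphate, was lower (-0.48, SE 0.17), and lost its call without mouse ILB_9578, ILB_9582, ILB_9583, UNT_9575 or UNT_9576. Of those that KLF2 or KLF4 lower, the chemokine gene Ccl2 went from 0.27 ± 0.18 to 5.97 ± 3.64 CPM (SD, n = 5). Sele, encoding E-selectin, rose by 3.75 (SE 0.63) on the log2 scale from a mean count of 4.60 per library. F3, encoding tissue factor, fell by 2.43 (SE 0.25).

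Around Klf15 and Klf9, the list of metabolic targets moved both ways as well. Of 8 genes, 2 were higher and 5 lower, beside 22.7% and 22.9% of all genes. Their median log2 fold change was -0.67 beside 0.00 for all genes. The higher ones were Tat, encoding the tyrosine-degrading aminotransferase (1.51, SE 0.22), and Fgf21, encoding a fasting hormone (1.93, SE 0.47, mean count 8.90). Bcat2, for a branched-chain aminotransferase, fell by 0.85 (SE 0.22), and Ppargc1a, for the coactivator PGC-1α, fell by 1.23 (SE 0.33). Of 7 glucocorticoid-inducible genes, 6 were higher and 0 lower, with a median of 1.14, beside 22.7% and 22.9% of all genes, and Sgk1, Zbtb16, Per1 and Dusp1 had log2 fold changes of 1.37, 1.33, 1.21 and 1.14. The seventh, Tsc22d3, was not called and had the opposite sign on both platforms with STAR (-0.65 on Illumina and -0.63 on Ion Torrent, edgeR adjusted p = 0.0866 and 0.102). Klf9 and Klf15, which glucocorticoids also induce, had 0.38 each in the same libraries. Of the 6 TGF-β pathway genes listed for Klf10 and Klf11, the receptor gene Tgfbr2 fell by 0.81 (SE 0.14), Smad2 was called higher at 0.29 but not without TMM scaling or without mouse ILB_9577, ILB_9578, ILB_9582, UNT_9574, UNT_9575, UNT_9576 or UNT_9580, and 4 were not called.

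Markers of liver cell types moved with the treatment, and their part in the KLF results was not tested. The counts called are from Illumina with STAR, where 22.7% of all genes were higher and 22.9% lower. All 7 neutrophil markers that could be tested were higher, and the summed level of the 8 listed was 52.7 to 117 CPM in treated against 2.13 to 6.24 CPM in untreated mice. Ngp was at 0 counts in every untreated library. Of 8 sinusoidal endothelial markers, 2 were higher and 3 lower, and the summed levels were 112 to 183 against 141 to 228 CPM. Kdr fell by 1.68 and Lyve1 rose by 1.49 on the log2 scale. Of 8 Kupffer cell markers, 1 was higher and 3 lower (summed 96.6 to 224 against 153 to 272 CPM), of 7 stellate cell markers 1 and 3 (168 to 251 against 232 to 290 CPM), and of 5 cholangiocyte markers 2 and 0 (41.8 to 73.8 against 46.0 to 63.2 CPM). Lymphocyte markers were at 1.01 to 2.08 against 1.6 to 3.58 CPM, with 1 of 4 lower. Hepatocyte markers summed to 72139.5 to 87012.6 CPM in treated and 96090.3 to 117439 CPM in untreated mice, with 1 of 8 higher and 4 lower. The labelled tissue thus shows its defining genes at high level in both groups. On Ion Torrent with STAR, 20.3% of all genes were higher and 21.8% lower. There 2 sinusoidal endothelial markers were higher and 5 lower. The counts were 1 and 4 for Kupffer cell, 1 and 2 for stellate cell and 1 and 5 for hepatocyte markers.

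The promoters of Klf2, the member with the highest log2 fold change on Illumina with STAR, and of Klf12, the one called lower, were compared. In each Ion Torrent table Klf6 was the highest instead (0.71 to 0.74) and Klf2 was not called. The promoters of Klf2 and Klf12 are shown as the 250 bases upstream of the start of each gene. They are from RefSeq on GRCm38.p6, which is not the build of the tables, and read 5′ to 3′ on the strand of the gene. Capitals mark every match on either strand of the CACCC box, the GC box (letters GGGCGG) and, for Klf12, the TATA box (letters TATAAA).
Klf2, chr8:72318812-72319061, plus strand: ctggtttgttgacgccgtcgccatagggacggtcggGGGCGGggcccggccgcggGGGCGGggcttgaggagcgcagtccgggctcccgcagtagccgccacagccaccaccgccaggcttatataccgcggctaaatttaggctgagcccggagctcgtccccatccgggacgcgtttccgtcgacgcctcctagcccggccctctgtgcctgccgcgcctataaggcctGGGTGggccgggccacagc
Klf12, chr14:100149797-100150046, minus strand: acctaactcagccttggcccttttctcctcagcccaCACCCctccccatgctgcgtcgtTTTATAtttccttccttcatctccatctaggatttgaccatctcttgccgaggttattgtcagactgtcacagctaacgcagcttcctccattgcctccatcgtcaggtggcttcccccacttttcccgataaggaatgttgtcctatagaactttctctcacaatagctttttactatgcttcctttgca
The window of Klf2 holds 2 GC boxes and 1 CACCC box, the element that KLF proteins bind. The window of Klf12 holds 1 CACCC box, no GC box and 1 TATA box on the other strand. Over the full windows of 300 bases, which also include the first 50 transcribed bases, the GC content was 69.3% for Klf2 and 45.7% for Klf12, beside a median of 52.7% over 32851 promoters. Klf12 was the least GC-rich of the 9 member promoters in the table, and the others had 63.0% to 77.7%.

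Over these 9 promoters (Klf10 had no entry), CACCC was found in 6 and in 57.5% of all promoters of that length, GGGCGG in 7 and in 35.7%, and CCAAT in 5 and in 37.4%. CACGTG, the E-box that clock factors and MYC bind, was found in Klf4, Klf6, Klf11 and Klf15, with 3 matches in Klf15, and in 7.15% of all promoters. TATAAA was found in Klf12 alone, and in 13.6% of all. No member window held TGACGTCA (1.79% of all), GGANTTTCC, a form of the NF-κB site (1.25%), or AGAACA, a glucocorticoid receptor half-site (19.0%). The shares over all promoters were not matched for GC content. That was 63.0% to 77.7% in the member windows other than that of Klf12, beside a median of 52.7% over all promoters. A match of letters is not a bound site, and a window without one says nothing about more distant elements.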

How the data were processed

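Liver RNA of 5 IL-1β treated and 5 untreated mice was measured by RNA-Seq on both platforms. The authors aligned reads to mm9 with STAR 2.5.1b, GSNAP or STAR and Bowtie2 2.2.9 (versions as in the submitters' processing notes). With PORT they removed rRNA and mitochondrial reads, re-sampled each table to its smallest library and deposited whole-number counts for each Ensembl gene. Whether a count is a read or a read pair, and whether counting used strand, is not given in the sources used here. Totals per library were 10568530 to 11046256 (Illumina STAR) and 12199528 to 12723326 (Ion Torrent STAR). Because re-sampling fixes the total of reads, TMM factors (0.935 to 1.10 in the Illumina STAR table) were still applied.

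Genes with at least 5 counts in 5 libraries of any table were tested with edgeR 4.0.16 (quasi-likelihood, TMM, Benjamini-Hochberg adjustment) in R 4.3.3, separately for each table. SE is the absolute log2 fold change over the square root of F. The rank test of the study's methods, run on the deposited counts without TMM, was an alternative. Others were limma-voom 3.58.1, DESeq2 1.42.0, other scalings and filters, and leaving out each mouse. The scripts were tested on simulated data. The platform term was fitted with the mouse as a block, since both libraries of a mouse come from 1 RNA sample, and their deviations from the group mean correlated at 0.25 to 0.74. Each mouse is 1 replicate. Positions and exon lengths are from the GENCODE annotation of NCBIM37 (mm9), which holds 37310 of the 37681 identifiers.

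The members and all gene lists were chosen with earlier results of these data known. All 10 members are named, the KLF genes outside them with at least 5 counts in 5 libraries, and from each list up to 4 DEGs with the largest fold change. Some genes of the lists are not reported here, nor are the counts of the lists that hold them. Promoters shown are those of the called members with the highest and lowest log2 fold change in the Illumina STAR table. Finger stretches shown are those of Klf2 with Klf4 and Klf3 with Klf12, the pairs closest over the fingers. Over the whole protein Klf9 and Klf13 (49.2% identity) were closer than Klf3 and Klf12 (47.7%).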

Additional observations from a re-analysis of the deposited data

Results flagged for a closer look

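In the group of treated mice on Illumina with STAR, mouse ILB_9582 stood apart from the other 4 for Klf12, at 10.2 CPM beside 5.31 to 6.70 CPM. Its gap to the nearest mouse was 0.716 of the range of the group, above the critical value of Dixon's test for 5 samples, 0.71. This was 1 of 40 groups tested (10 members, both treatments, both STAR tables), and chance alone flags about 1 group in 20. On Ion Torrent the same mouse had 4.77 CPM in a range of 2.43 to 4.90 CPM. Klf12 stayed a DEG in edgeR's test without this mouse.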

How the results depend on the processing

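The count of 4 members called higher was 0 with the rank-sum test, which also gave 0 at an unadjusted p below 0.05. That test ran on the counts without TMM, so that test and scaling changed together. The count was 2 in each of the 3 Ion Torrent tables. It was 0 in the Ion Torrent STAR table without untreated mouse UNT_9584, where 2929 of 15578 genes were higher and 3117 lower. This alternative was chosen after seeing the data and has 1 mouse fewer. The count was 0 as well when an absolute log2 fold change above 1 was also asked for (1250 and 1384 genes). Leaving out each mouse in turn gave 3 to 5. The count of 1 member called lower, Klf12, was 1 under every alternative run, and 1 to 1 over the leave-one-out fits. limma-voom (3626 genes higher and 3566 lower) and the fit without TMM (2746 and 4335) gave 3 higher members. DESeq2 (3574 and 3580) and DESeq2 size factors inside edgeR (3528 and 3584) gave 4, and so did testing 19704 genes without the filter (3599 and 3565) or only the 11930 with a mean of at least 10 (3402 and 3396), where Klf4 (mean 8.20) could not be fitted. The sign of Klf4 turned in the Illumina STAR + Bowtie2 table (0.18) and its leave-one-out values ran from -0.40 to 0.090. No member had a platform-by-treatment term with the replicate block (0), with no replicate block (0), with another aligner (0), with limma-voom (0) or over the leave-one-out fits (0 to 0). The cause of these shifts was not tested. On Illumina with STAR, Klf2 and Klf4, with mean counts of 30.6 and 8.20, are the members with the fewest counts. In the Ion Torrent tables, which did not call Klf2, its mean count was higher, at 74 to 88.7.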

Other observations

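The mice with the highest and the lowest level of each member were compared between platforms. For the 10 members and both treatments, which makes 20 groups of 5 mice, the mouse with the highest level was the same on Illumina and Ion Torrent (STAR) in 15 groups and the mouse with the lowest level in 16. The highest mouse differed for Klf2, Klf4 and Klf12 in treated mice and for Klf6 and Klf15 in untreated mice. The lowest differed for Klf2 in treated mice, Klf15 in untreated mice and Klf4, which has few counts, in both. Both libraries of a mouse share its RNA, so this describes the animals and their samples and not a treatment. Among untreated mice, UNT_9575 had the most Klf2, Klf3, Klf4 and Klf13 and the least Klf9 and Klf12 on both platforms, and mouse UNT_9580 had the most Klf9, Klf10 and Klf12 and the least Klf2 and Klf3 on both.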
